A study of Cricetulus griseus with 3 samples.

Results

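The genes described here are those of DNA repair and of the response to DNA damage that mouse cDNA clones represented on the array, chosen by gene symbol alone (the Rad, Xrcc, Xpa and Xpc, Ercc, Msh, Mlh, Pms, Fanc, Brca, Parp, Lig, Chek, Atm and Atr, Trp53 and Gadd45 names). They were 65 of the 17664 spots, of which 16928 were tested, and 51 of 8146 genes with a value. Of the 51 genes, 40 had 1 spot, 8 had 2 spots and 3 had 3 spots. The choice by symbol also brought in relatives whose best known work lies elsewhere, such as Gadd45gip1 (mitochondrial translation) and Rad54l2 (transcription), and 47 of the 51 symbols had a gene of the same name in the Chinese hamster annotation.

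CHO, from the ovary of a Chinese hamster, is an established cell line. S-1, a stable line derived from it through an earlier transfected line, carried constructs for the 4 subunits of γ-secretase (among them Flag-PEN2, APH1-a2-HA and NCT-GST), was kept with G418, puromycin, zeocin, hygromycin and blasticidin, and received 0.05% DMSO for 24 h. The parental CHO cells carried no construct, were kept without these drugs, and received 10 µM of the γ-secretase inhibitor DAPT in 0.05% DMSO for the same time. The paper also marks APP, a γ-secretase substrate, as overexpressed in S-1. Each of 3 arrays paired 1 S-1 culture with 1 DAPT-treated CHO culture, with S-1 RNA in Cy3 on arrays 1 and 2 and in Cy5 on array 3. Every value is a log2 ratio with DAPT-treated CHO as the denominator (n = 3 arrays), so that a positive value stands for more transcript in S-1. Cell line, constructs, selection and inhibitor all differed between both sides of each array and cannot be told apart. Of the selection drugs, zeocin belongs to the bleomycin family, which is known to break DNA.

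DNA repair is divided among pathways that each handle one kind of lesion. Double-strand breaks are sensed by Atm and its partners, which signal through the kinases Chek1 and Chek2, and are closed by homologous recombination or by end joining. Mismatch repair corrects replication errors, nucleotide excision repair removes bulky lesions, single-strand break repair relies on Parp1 and Xrcc1, and the Fanconi anemia pathway unhooks crosslinks. The Gadd45 genes are induced by stress and damage. Transcripts of many of these genes are also known to follow the cell cycle.

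As a check of the labels, Psenen and Aph1a, both transfected subunits, were raised in S-1 on each array, at log2 ratios of 3.09 ± 0.25 (SD, n = 3, adjusted p = 1.36e-04, limma) and 2.02 ± 0.16 (adjusted p = 1.40e-04). Ncstn was at 0.38 ± 0.25 and did not pass (adjusted p = 0.0313). The array names clone collections by letter, and by their position 63 of the 65 repair spots were H clones and 2 (Gadd45a and Gadd45b) were P clones. Of all H clone spots, 6.76% were higher and 8.52% lower, 15.3% together, while P clone spots were more often higher (19.3%) and lower (12.8%).

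Most of the repair genes did not pass the test, and those that did at the main threshold were mainly higher in S-1. At an adjusted p under 0.005 (limma, adjusted over all genes), 7 of the 51 genes were higher (Parp16, Rad54b, Fancl, Rad18, Gadd45b, Rad1 and Rad54l), 1 was lower (Rad21) and 43 did not pass. The balance was less one-sided in other fits, with 14 higher and 6 lower genes at a threshold of 0.05 and 9 higher and 6 lower with array weights. Over all genes, 46.2% were called at a threshold of 0.05 and 38.5% with array weights. In the main fit, the share of repair genes called was 15.7%, against 22.6% of all 8146 genes (12.4% higher and 10.3% lower). By spots, 7 of 65 were higher, 1 was lower and 57 did not pass, or 12.3%, against 18.2% of all tested spots (9.68% higher and 8.52% lower). Among the 63 H clones, 6 were higher and 1 was lower. The share of repair genes called was thus no higher than that of the array as a whole. In the main fit over genes, higher repair genes were about as frequent as higher genes on the whole array, and lower ones were less frequent. With H clones alone, 6 repair genes were higher and 1 was lower, where 18.7% of all genes were called.

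The changes were small. The log2 ratios of the 65 spots ran from −0.63 to 0.88, so that 0 spots lay beyond 1 in either direction, and 12.31% lay beyond 0.5 against 15.27% of all tested spots. The median was 0.08 over the repair spots, 0.01 over all tested spots and 0.00 over the H clones. On the single arrays the median of the repair spots was 0.03, 0.10 and 0.07, and 40 of the 65 spots had a mean above 0. The standard error of a spot was 0.06 in the median and 0.12 at most. At an unadjusted p under 0.05 (limma) there were 31 of the 65 spots and 24 of the 51 genes. Over the whole array there were 8237 of 16928 tested spots and 4419 of 8146 genes, so the repair shares were no higher.

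**Figure D1:**
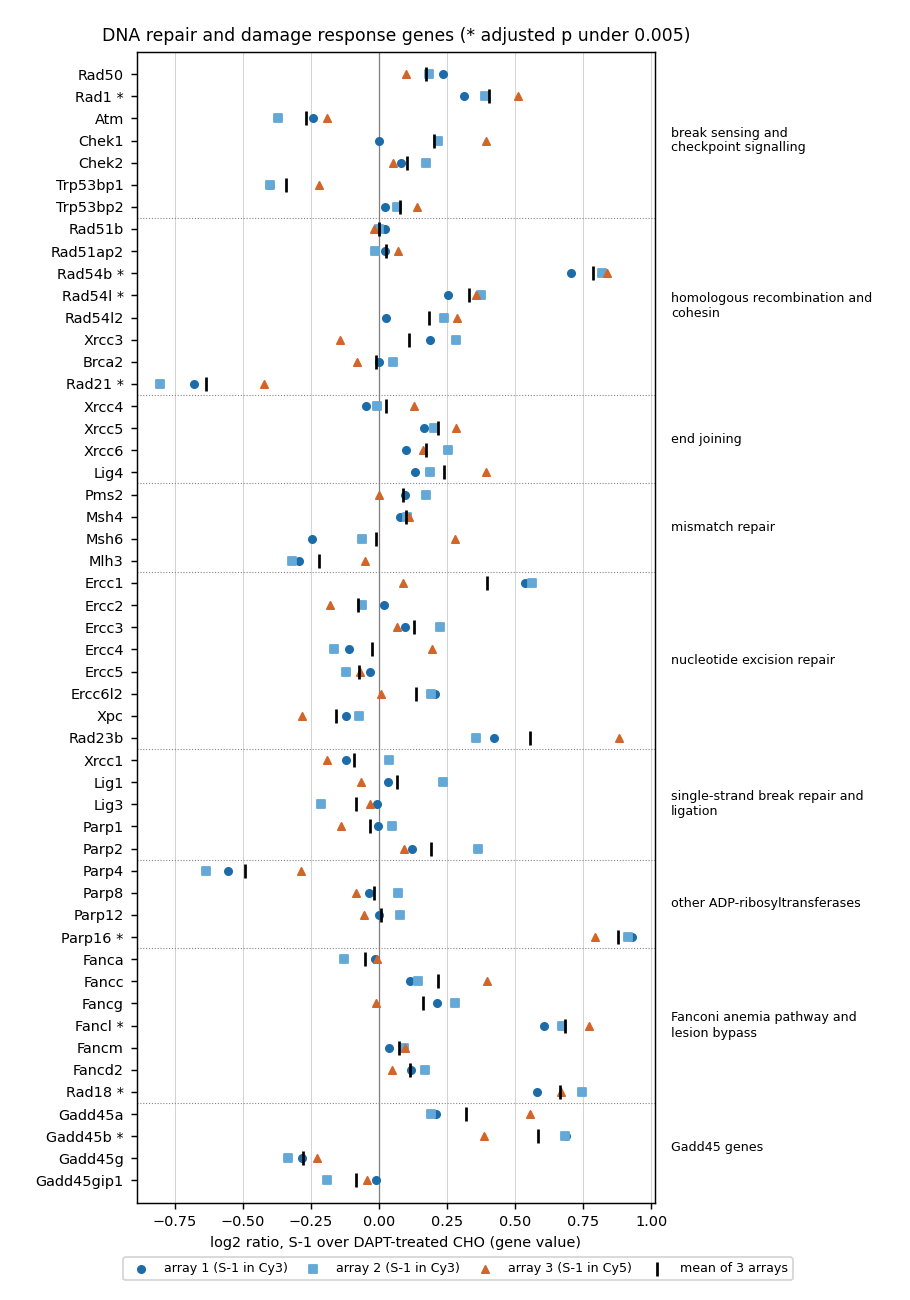
Log2 ratio, S-1 against DAPT-treated CHO (x axis), for each of the 51 repair and damage response genes (rows, grouped by role), with 1 point per array and a bar at the mean of the 3 arrays. A star marks an adjusted p under 0.005. Parp16, Rad54b, Fancl and Rad18 sit to the right of 0.5 on every array, and Rad21 is the starred gene to the left of 0.

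**Figure D2:**
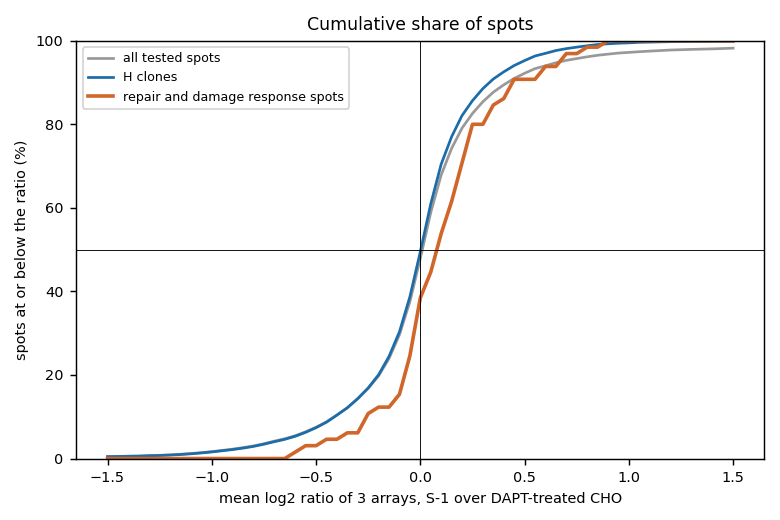
Share of spots (%, y axis) with a mean log2 ratio at or below the value on the x axis, for the 65 repair and damage response spots, the 15360 H clones and all 16928 tested spots. The curve of the repair spots lies to the right of the others around 0 and reaches 100% before a log2 ratio of 1, with 38.5% of the repair spots at or below 0 against 49.5% of the H clones.

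Among the genes of break sensing and checkpoint signalling, 1 of 7 rose and 6 did not pass the test (14.3% called, against 22.6% of all genes). Rad1, a subunit of the ring-shaped clamp that is loaded at damaged DNA, had log2 ratios of 0.31, 0.39 and 0.51 on arrays 1, 2 and 3. All arrays thus lay above 0, with the highest value on the array with swapped dyes. Its mean was 0.40 ± 0.10 (SD, n = 3), a ratio of 1.32 (adjusted p = 0.00373, limma). Its spot was called too (adjusted p = 0.00457), but not with each array centred on its median (adjusted p = 0.00566).

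Atm, the kinase that starts the signal at double-strand breaks, was at −0.24, −0.37 and −0.19, below 0 on every array, with a mean of −0.27 ± 0.09 (adjusted p = 0.0124, limma) that did not pass. Its target kinases did not pass either. Chek1 was measured by 3 spots with means of 0.18, 0.21 and 0.22, close to each other, but its gene value was −0.00, 0.22 and 0.39 in turn (mean 0.20 ± 0.20, adjusted p = 0.105). The arrays of Chek1 disagreed more than its clones. Chek2 was at 0.10 ± 0.06 (adjusted p = 0.136). Rad50, a subunit of the complex that binds broken ends, had 3 spots at 0.22, 0.14 and 0.16 and a gene value of 0.17 ± 0.07 (adjusted p = 0.0360).

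Trp53bp1 encodes a scaffold that gathers at breaks and favours end joining, and its 3 clones were all below 0. The first was at −0.06, −0.03 and −0.14, the second at −0.67, −0.75 and −0.35, and the third at −0.47, −0.42 and −0.17. The second clone came close to the threshold with a mean of −0.59 ± 0.21 (adjusted p = 0.00568, limma), whereas the first was at −0.08 ± 0.05 (adjusted p = 0.267). The gene value of −0.34 ± 0.10 did not pass (adjusted p = 0.00694). Trp53bp2, whose protein binds p53 and favours cell death, was at 0.08 ± 0.06 (adjusted p = 0.240).

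Homologous recombination copies an intact sister strand, which cohesin holds close to the broken one. Of 8 genes of these roles, Rad54b and Rad54l rose, Rad21 fell and 5 did not pass (37.5% called, against 22.6% of all genes). Rad54b, a motor protein that helps strands invade the intact duplex, was at 0.71, 0.82 and 0.84. The 3 arrays lay close together and far from 0, and the mean of 0.79 ± 0.07 stood for a ratio of 1.73 (adjusted p = 3.64e-04, limma). Its relative Rad54l was at 0.25, 0.38 and 0.36, also above 0 on every array but less than Rad54b. Its mean of 0.33 ± 0.07 passed as a gene (adjusted p = 0.00455) and not in the fit over spots (adjusted p = 0.00572), although both rest on the same single clone, and it was not called with each array centred on its median (adjusted p = 0.00523).

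Rad21 encodes the cohesin subunit that closes the ring around sister chromatids. Its log2 ratios were −0.68, −0.80 and −0.42, with the swapped array nearest to 0, and the mean of −0.63 ± 0.19 (95% confidence interval −0.85 to −0.42) corresponded to 1.55-fold less transcript in S-1 (adjusted p = 0.00328, limma). Rad21 was the lowest of the 51 genes. Of the other cohesin subunits, Smc1a and Smc3 were looked up and did not pass: Smc1a was at 0.06 ± 0.12 (adjusted p = 0.483) and Smc3 at −0.09 ± 0.16 (adjusted p = 0.352).

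Brca2, a central mediator of homologous recombination, was at −0.00, 0.05 and −0.08, on both sides of 0, with a mean of −0.01 ± 0.07 (95% confidence interval −0.13 to 0.11, adjusted p = 0.880, limma). Rad51b, which acts early in recombination, was at 0.00 ± 0.02 and Rad51ap2 at 0.03 ± 0.04. Xrcc3, also of the recombination machinery, was at 0.19 and 0.28 on arrays 1 and 2 and at −0.14 on array 3. Rad54l2 was at 0.18 ± 0.14 (adjusted p = 0.0737).

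Of the 4 genes of end joining, 0 passed as a gene (limma, adjusted), and 3 had an unadjusted p under 0.05. Over the array, 4419 of 8146 genes had such a p. All 4 gene values were above 0. Xrcc5 and Xrcc6 encode the pair of Ku proteins that cap broken ends. The 2 spots of Xrcc5, at consecutive positions, differed: the first was at 0.00, −0.11 and 0.07, and the second at 0.33, 0.51 and 0.49. The second passed the test at 0.44 ± 0.10 (adjusted p = 0.00339, limma) and the first did not (−0.01 ± 0.09, adjusted p = 0.905), so that the gene value of 0.22 ± 0.06 did not pass (adjusted p = 0.0162). Xrcc6 was at 0.17 ± 0.08 (adjusted p = 0.0414). Lig4, the ligase that seals the ends, was at 0.13, 0.19 and 0.39 (mean 0.24 ± 0.14, adjusted p = 0.0340), and its partner Xrcc4 at 0.03 ± 0.09. Prkdc, the kinase recruited by Ku and not among the 51 genes, was at −0.81, −0.55 and −0.28 (mean −0.55 ± 0.27, adjusted p = 0.0114). Its values were below 0 on every array, on the other side from the 4 genes. The other further genes of this role also had means below 0, Poll at −0.44 ± 0.21 (adjusted p = 0.0119, limma) and Paxx at −0.08 ± 0.29 (adjusted p = 0.601). Of these 3 further genes of end joining, 0 passed (limma, adjusted).

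Mismatch repair was represented by 4 genes, of which 0 passed (limma, adjusted) and 1 had an unadjusted p under 0.05 (4419 of all 8146 genes). Mlh3, a MutL relative best known from meiosis, was at −0.29, −0.32 and −0.05 (mean −0.22 ± 0.15, adjusted p = 0.0499). Msh6, the MutS relative that recognises single mismatches, was at −0.24, −0.06 and 0.28, on both sides of 0. Msh4, which acts in meiotic recombination, was at 0.10 ± 0.02 (adjusted p = 0.114). Pms2, a MutL relative that nicks the new strand, had a clone at 0.33 ± 0.17 (adjusted p = 0.0227) and a clone at −0.15 ± 0.03 (adjusted p = 0.0540), each on the same side of 0 on all 3 arrays. Its gene value of 0.09 averages spots that point in opposite directions.

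Nucleotide excision repair had 8 genes, of which 0 passed (limma, adjusted) and 3 had an unadjusted p under 0.05 (4419 of all 8146 genes). Rad23b, which stabilises the damage sensor Xpc, had the highest mean of them, with 0.42, 0.36 and 0.88. Every array was well above 0, but array 3 stood apart, and the mean of 0.55 ± 0.29 did not pass (adjusted p = 0.0136). Ercc1, which with Ercc4 cuts the damaged strand on one side, behaved the other way round: its gene values were 0.54, 0.56 and 0.09, lower on the array with swapped dyes, for a mean of 0.40 ± 0.27 (adjusted p = 0.0328). Both Ercc1 clones showed this, with 0.46, 0.54 and 0.10 for one and 0.61, 0.58 and 0.07 for the other. Ercc4 itself was at −0.11, −0.16 and 0.19.

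Xpc had a clone at −0.29 ± 0.10 (adjusted p = 0.0122, limma) and a clone at −0.02 ± 0.13 (adjusted p = 0.809). Ercc2 and Ercc3, the helicases of the transcription factor TFIIH that open the helix, were at −0.08 ± 0.10 and 0.13 ± 0.08. Ercc5, the nuclease of the opposite side, was at −0.07 ± 0.04, and Ercc6l2 at 0.14 ± 0.11.

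Single-strand break repair and ligation comprised 5 genes, of which 0 passed (limma, adjusted) and 1 had an unadjusted p under 0.05 (4419 of all 8146 genes). Parp1, the sensor that marks breaks with ADP-ribose chains, was at −0.03 ± 0.10 (95% confidence interval −0.17 to 0.11, adjusted p = 0.677), and Parp2, which can stand in for it, was at 0.12, 0.36 and 0.09 (mean 0.19 ± 0.15, adjusted p = 0.0730). The scaffold Xrcc1 was at −0.09 ± 0.12, Lig3, its ligase partner, at −0.08 ± 0.11, and Lig1, the ligase of replication, at 0.07 ± 0.15. These 5 genes spanned −0.09 to 0.19.

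The other ADP-ribosyltransferases are named for their likeness to Parp1, although most are not known for DNA repair. Parp16 rose and the other 3 did not pass (25% called, against 22.6% of all genes). Parp16, an enzyme anchored in the endoplasmic reticulum and known for its part in the unfolded protein response, was the highest of the 51 genes, at 0.93, 0.91 and 0.79. The 3 arrays lay close together, the swapped one lowest, and the mean of 0.88 ± 0.07 stood for a ratio of 1.84 (adjusted p = 2.78e-04, limma). Parp4, a component of vault particles, was at −0.55, −0.64 and −0.28, below 0 throughout, and its mean of −0.49 ± 0.18 lay just outside the threshold (adjusted p = 0.00638). Parp8 was at −0.02 ± 0.08 and Parp12 at 0.01 ± 0.07.

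In the Fanconi anemia pathway and lesion bypass, Fancl and Rad18 rose and 5 of 7 genes did not pass (28.6% called, against 22.6% of all genes). Fancl is the ubiquitin ligase of the Fanconi core complex, and its values of 0.61, 0.67 and 0.77 gave a mean of 0.68 ± 0.08, a ratio of 1.61 (adjusted p = 6.48e-04, limma). Rad18 is the ubiquitin ligase that marks Pcna at stalled forks so that bypass polymerases can enter, and its values of 0.58, 0.74 and 0.67 gave a mean of 0.66 ± 0.08, a ratio of 1.59 (adjusted p = 7.08e-04). In both genes the 3 arrays lay close together and above 0.5.

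The rest of the pathway stayed nearer to 0. Fancd2, the protein that Fancl modifies, had spots at 0.02 ± 0.05 and 0.20 ± 0.08 and a gene value of 0.11 ± 0.06 (adjusted p = 0.108, limma). Of the other core complex genes, Fancc was at 0.22 ± 0.16 (adjusted p = 0.0566), Fancg at 0.16 ± 0.15, Fancm at 0.08 ± 0.03 and Fanca at −0.05 ± 0.07. Of these 4 core complex genes, 0 passed (limma, adjusted), and Fancc alone had an unadjusted p under 0.05.

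The Gadd45 genes went in different directions, and 1 of 4 was called (25%, against 22.6% of all genes). Gadd45b, whose protein binds stress kinases, was at 0.69, 0.68 and 0.38, above 0 throughout but lower on the swapped array, and rose with a mean of 0.58 ± 0.17 (adjusted p = 0.00322, limma). Gadd45a, the relative that p53 induces, was at 0.21, 0.19 and 0.55 and did not pass (mean 0.32 ± 0.20, adjusted p = 0.0329). Gadd45g was at −0.28, −0.33 and −0.23, below 0 on all arrays with little spread, and lay just outside the threshold (mean −0.28 ± 0.05, adjusted p = 0.00654). Gadd45gip1 was at −0.08 ± 0.10 (adjusted p = 0.267). Gadd45a and Gadd45b were P clones and Gadd45g an H clone.

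The clones of a gene did not always give the same value. Of 11 genes with more than 1 spot, 5 (Parp1, Parp12, Pms2, Rad51b and Xrcc5) had spots on opposite sides of 0. The widest gaps between spot means were 0.51 for Trp53bp1, 0.47 for Pms2 and 0.45 for Xrcc5, while the spots of Chek1 and of Ercc1 differed by 0.05. The genes called, apart from the single Xrcc5 spot, each rested on 1 spot, so that their calls have no second clone beside them.

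**Figure D3:**
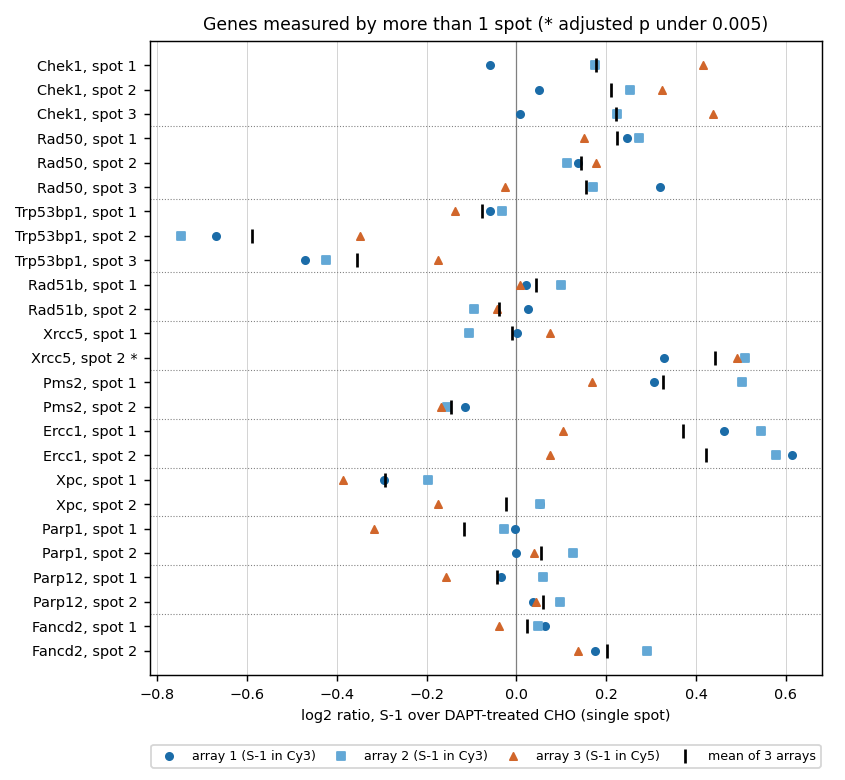
Log2 ratio, S-1 against DAPT-treated CHO (x axis), for every spot of the 11 genes with more than 1 spot (rows), with 1 point per array and a bar at the mean of the 3 arrays. A star marks an adjusted p under 0.005. The 2 spots of Xrcc5 and of Pms2 separate, as does the first spot of Trp53bp1 from the others, while array 3 is highest for every Chek1 spot and lowest for both Ercc1 spots.

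The array with swapped dyes differed from the others in both directions. Array 3 lay above both other arrays in 28 of the 65 spots, below both in 27 and between them in 10. The absolute difference between array 3 and the mean of arrays 1 and 2 had a median of 0.14 over the repair spots and 0.12 over all tested spots. It was over 0.3 in 13 spots, among them Rad21, Rad23b, Gadd45a, both spots of Ercc1 and 2 of the 3 spots of Chek1. The ratios of Parp16, Rad54b, Fancl, Rad18, Rad1 and Rad54l changed by less. On all 3 arrays, 70.77% of the repair spots kept 1 sign, against 67.55% of all tested spots. Dye and culture changed together on array 3, so their parts cannot be told apart.

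**Figure D4:**
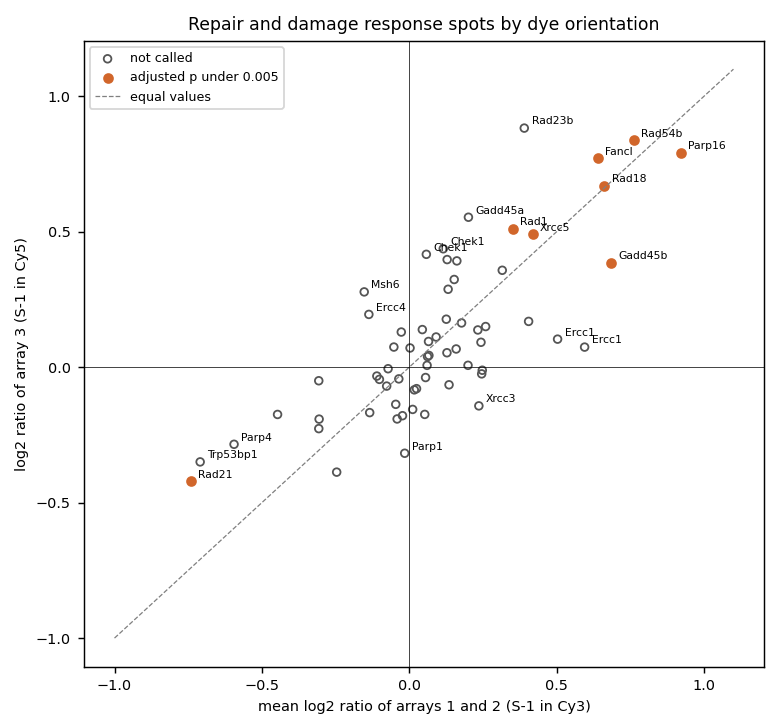
Log2 ratio on array 3, with S-1 in Cy5 (y axis), against the mean of arrays 1 and 2, with S-1 in Cy3 (x axis), for the 65 repair and damage response spots. Filled points passed an adjusted p of 0.005, the dashed line marks equal values, and names are given for called spots and for those more than 0.3 from the line along the y axis. Rad23b, Chek1, Msh6 and Ercc4 lie above the line, and both Ercc1 spots and Xrcc3 lie below it.

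The number of calls depended on the arrays. Without array 1, Parp16, Rad54b, Fancl and Rad18 remained called, with adjusted p of 0.00283, 0.00251, 0.00420 and 0.00416 (limma, gene values). Without array 2, Parp16 (adjusted p = 0.00383) and Rad54b (0.00489) remained, and the fit over spots gave 0 calls (limma, adjusted), with 18 repair spots at an unadjusted p under 0.05. Without array 3, 17 genes and 23 spots were called, the 8 genes among them. Over all genes the share called moved the same way, to 8.26% without array 1, 5.97% without array 2 and 40.5% without array 3. The calls of Gadd45b, Rad1, Rad54l, Rad21 and the Xrcc5 spot were thus lost without array 1 and also without array 2. Those of Fancl and Rad18 were lost without array 2. As calls fell over all genes in these fits, the losses are not particular to these genes. Arrays 1 and 2 both carried S-1 in Cy3, so the fit without array 3 had no dye swap. In that fit, dye and cell line could not be told apart.

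A wider list of 204 repair and damage response genes not covered by the symbols above had 122 genes with a value. Of these, 23 rose, 6 fell and 93 did not pass (23.8% called, against 22.6% of all genes), with a median log2 ratio of 0.06. Over all genes, 12.4% were higher and 10.3% lower. With H clones alone, 18.7% of all genes were called, and 22 genes of the list were higher and 6 lower. The counts followed the arrays as above: 5 were called without array 1, all higher, 2 were called without array 2, both higher, and 38 higher and 12 lower genes were called without array 3. Cdc25c and Btg2 were the genes of the list called with any 1 array left out. In base excision repair, which replaces single damaged bases, Apex1, the nuclease that opens the abasic site, was at 0.59 ± 0.18 (adjusted p = 0.00342, limma) and Polb, the polymerase that fills it, at 0.46 ± 0.08 (adjusted p = 0.00179). Fen1, the nuclease of the longer patch, was at 0.33 ± 0.10 and did not pass (adjusted p = 0.00681). Apex1 and Polb were the 2 genes called among 10 of this role, or 20%.

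Of 14 further genes of nucleotide excision repair, 4 rose, 3 fell and 7 did not pass (50% called, against 22.6% of all genes). Those that rose encode parts of TFIIH or of its kinase: Cdk7 was at 0.69, 0.71 and 0.97 (mean 0.79 ± 0.16, adjusted p = 0.00111, limma), Gtf2h4 at 0.65 ± 0.10, Ccnh at 0.44 ± 0.11 and Gtf2h1 at 0.42 ± 0.07. Mnat1, the third subunit of the kinase, was at 0.29 ± 0.05 (adjusted p = 0.00584) and Gtf2h5 at −0.06 ± 0.05 (adjusted p = 0.347), both short of the threshold, and the helicases Ercc2 and Ercc3 were near 0 (above). The values of this complex thus spread from −0.08 to 0.79. Those that fell were Cetn2, the partner of Xpc, at −0.56 ± 0.07 (adjusted p = 9.40e-04), Ddb1, of the sensor of ultraviolet damage, at −0.35 ± 0.05 and Xab2 at −0.33 ± 0.04.

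Of the partners of mismatch repair, a list made up of replication factors, 3 of 10 rose (30% called, against 22.6% of all genes). Pole2 and Pole3, subunits of polymerase epsilon, were at 0.69 ± 0.06 (adjusted p = 5.12e-04, limma) and 0.46 ± 0.03 (adjusted p = 0.00115), and Rfc3, of the clamp loader, was at 0.51 ± 0.04. Other subunits of the same complexes went the other way without passing, such as Pole at −0.21 ± 0.10 (adjusted p = 0.0285), Pole4 at −0.24 ± 0.04 (adjusted p = 0.00934) and Rfc1 at −0.23 ± 0.03 (adjusted p = 0.0103). Rrm2, the ribonucleotide reductase subunit that limits the supply of nucleotides in S phase, rose in all 3 of its spots, with a gene value of 0.56 ± 0.05 (adjusted p = 7.94e-04).

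In homologous recombination, 2 of 24 further genes rose and 1 fell (12.5% called, against 22.6% of all genes). Mms22l, which helps to restart stalled forks, was at 0.55 ± 0.07 (adjusted p = 9.91e-04, limma) and Nsmce1, of the Smc5 and Smc6 complex, at 0.39 ± 0.03. Smc5 and Smc6 themselves did not pass, at −0.02 ± 0.07 (adjusted p = 0.816) and −0.08 ± 0.12 (adjusted p = 0.348). The gene that fell was Psmc3ip, a partner of meiotic recombinases, at −0.41 ± 0.03 (adjusted p = 0.00173). In bypass and tolerance, the ubiquitin-conjugating enzymes Ube2a, which works with Rad18, and Ube2t, which works with Fancl, rose to 0.46 ± 0.10 (adjusted p = 0.00262) and 0.48 ± 0.11 (adjusted p = 0.00262). These were 2 of 11 genes of this role, or 18.2%, and neither was called without array 1 or without array 2. Some others of the role were near 0, such as Ube2v2 at 0.03 ± 0.19, Shprh at 0.00 ± 0.03 and Wdr48 at 0.00 ± 0.06. Rev3l, at −0.45 ± 0.30 (adjusted p = 0.0304, limma), and Usp1, at 0.34 ± 0.10 (adjusted p = 0.00644), lay further from 0 on opposite sides without passing. The second Ube2a spot, at 0.38 ± 0.20, did not pass on its own (adjusted p = 0.0208). Pcna, the protein Rad18 marks, was at 0.41 ± 0.14 and did not pass (adjusted p = 0.00595). The demethylase Alkbh3 was at 0.68 ± 0.21 (adjusted p = 0.00317).

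Downstream of the checkpoint kinases, Cdc25c, the phosphatase that starts mitosis and is held back by Chek1 and Chek2, had a gene value of 0.97 ± 0.12 (adjusted p = 3.52e-04, limma), lowest on array 1. Both its spots were called but differed, with the H clone at 0.63 ± 0.04 and the P clone at 1.30 ± 0.21, so that the gene value was 0.63 with H clones alone. Rnf168, a ubiquitin ligase that acts ahead of Trp53bp1, was at 0.40 ± 0.06 (adjusted p = 0.00242), and Tipin, of the fork protection complex, at 0.33 ± 0.07 (adjusted p = 0.00484). The single clone of Tipin did not pass in the fit over spots (adjusted p = 0.00608), nor as a gene with centred arrays (adjusted p = 0.00545), the robust prior (0.00512) or the unlisted spots left out (0.00502). These 3 were called of 21 genes (14.3%, against 22.6% of all genes), of which 10 had a mean above 0. Rnf8, another ubiquitin ligase of this role, was at −0.31, −0.15 and −0.45 (mean −0.30 ± 0.15, adjusted p = 0.0190, limma) and did not pass.

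Among 20 regulators and targets of p53, 4 rose, 2 fell and 14 did not pass (30% called, against 22.6% of all genes). The cell cycle inhibitor Cdkn1a, a P clone, was at −0.49, −0.62 and −0.84, lower in S-1 on every array (mean −0.65 ± 0.18, adjusted p = 0.00240, limma). Sesn1 was at −0.61 ± 0.04 (adjusted p = 5.62e-04), and both its spots passed. Mdm2, the negative regulator of p53 that is also its target, was at 0.00 ± 0.08 (adjusted p = 0.963). Those that rose were Btg2, Dapk1, Fas and the phosphatase Ppm1d, of which Dapk1, a kinase of cell death, was at 0.95 ± 0.15 (adjusted p = 6.02e-04) and Ppm1d at 0.36 ± 0.09. The 2 spots of Ppm1d differed, with a called spot at 0.57 ± 0.08 and a spot at 0.14 ± 0.10 that did not pass (adjusted p = 0.103).

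Btg2 and Fas depended on their clones. The Btg2 spot at an unlisted position, where 78.8% of all spots were higher, was at 1.96 ± 0.34, and its H clone was at −0.01 ± 0.30. The Fas spot at an unlisted position was at 2.18 ± 0.18, its N clone at 0.51 ± 0.41 and its P clone at 0.07 ± 0.12. Without the unlisted spots neither gene passed, with −0.01 for Btg2 (adjusted p = 0.957, limma) and 0.29 for Fas (adjusted p = 0.0764). Ppp1r15a, a relative of the Gadd45 response that restores translation after stress, rose to 0.85 ± 0.22 on an H clone (adjusted p = 0.00172).

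**Figure D5:**
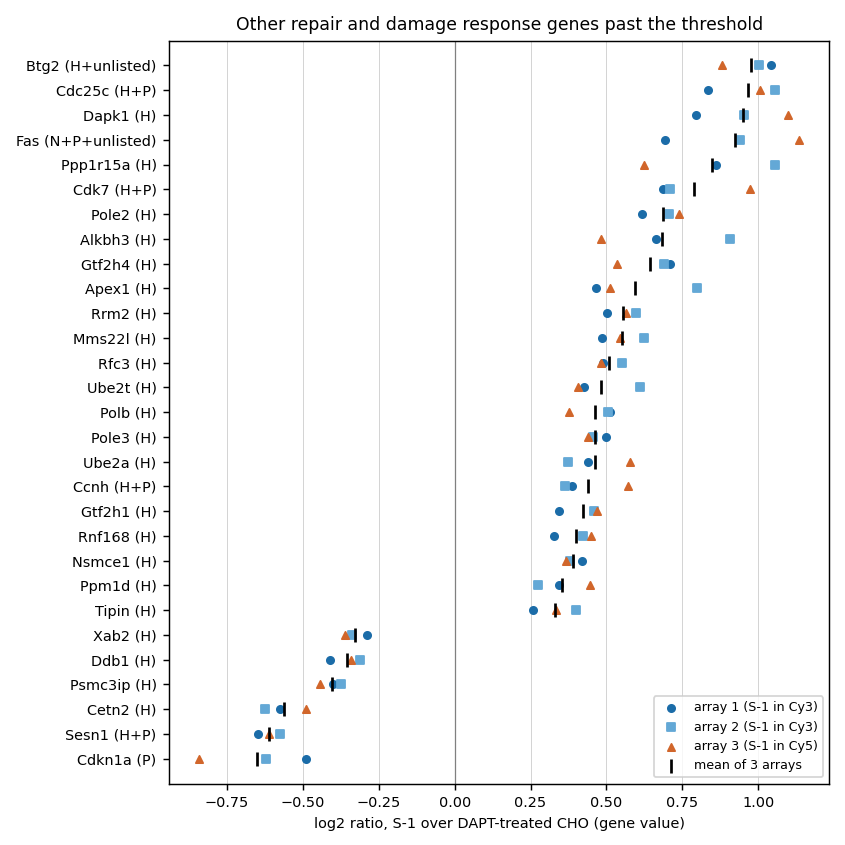
Log2 ratio, S-1 against DAPT-treated CHO (x axis), for the 29 further repair and damage response genes with an adjusted p under 0.005 (rows, with the clone collections of their spots in brackets), with 1 point per array and a bar at the mean of the 3 arrays. The 23 genes to the right of 0 reach 0.98 (Btg2), and Cdkn1a, Sesn1 and Cetn2 lie below −0.5.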

How the data were processed

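The authors left the background in place, normalised each scanned array by print-tip group lowess and used limma for their own tests. The log2 ratios used here are the values they deposited, 1 per spot and array. In each column a positive ratio stood for more transcript in S-1, and array medians of the tested spots were 0.02, 0.01 and 0.00. Intensities were not used here, so signal over background is unknown, and the number of arrays limits the precision.

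At 23 positions in each of 32 print-tip blocks, 736 spots without a gene name followed the dye (Pearson's r of 0.990 between arrays 1 and 2 and −0.960 between arrays 1 and 3) and were left out as controls. Of the 16928 tested spots, 12563 had 1 gene symbol in the platform annotation, 412 had several and 3953 had none. A gene value was the mean of all tested spots with the same single symbol. limma 3.58.1 in R 4.3.3 fitted each spot or gene against 0 (3.05 and 2.96 prior degrees of freedom), with Benjamini-Hochberg adjustment over all 16928 spots or 8146 genes and the authors' threshold of 0.005. The fit was checked on simulated data with independent arrays and no dye effect, so that check cannot show how a shared dye orientation affects the calls. Tables and figures were made with Python 3.11.15, NumPy 2.4.6, pandas 2.3.3 and Matplotlib 3.10.9. Unlisted spots (480) lay at positions for which the study's lists of clones gave no collection.

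The members were picked by symbol without use of their values. The symbols, the 9 roles and the list of 204 other genes were set with earlier results of these data known. Named in full were the called genes and spots, the Trp53 and Gadd45 genes, Atm, Chek1, Chek2 and Brca2, the 5 largest of the other members, called genes of the wider list (at most 4 a role) and 3 transfected subunits. The members, clones and further genes named beside these were added after their values were seen. No clone sequence was at hand, and the clones are of mouse, so none is printed and no hamster coordinates are given. The alternatives were a threshold of 0.05, centring, scaling and quantile normalisation of the arrays, a dye coefficient, array weights, a robust variance prior, control spots included, unlisted spots left out, H clones alone, a median over a gene's spots and each array left out.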

Additional observations from a re-analysis of the deposited data

How the results depend on the processing

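Of 57 named values under 14 settings, the first Xrcc5 spot and Brca2, both near 0, and Btg2, a called gene, turned sign. The first Xrcc5 spot was at 0.0110 with a dye coefficient and ran from −0.0523 to 0.0382 with 1 array left out. Brca2 was at 0.0179 with array weights and ran from −0.0402 to 0.0246 with 1 array left out. Btg2, at 0.98 with all its spots, was at −0.0091 both without the unlisted spots and with H clones alone. Scaling and quantile normalisation kept the call of all 57. Centring the arrays ended the calls of Rad54l and Tipin as genes and of the Rad1 spot, the robust prior that of Tipin (adjusted p = 0.00512, limma), and leaving out the unlisted spots those of Tipin (0.00502) and Fas. Fas was also lost with the median of its spots (adjusted p = 0.0463), and the spots of Rad1, Rad21 and Gadd45b and the second Xrcc5 spot with the control spots included (adjusted p from 0.0112 to 0.0145). The cause was not tested.

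Some other settings called more. At a threshold of 0.05 there were 16 higher and 7 lower repair spots, 14 and 6 repair genes, and 43 and 17 genes of the wider list, and Ncstn passed at 0.38. With a dye coefficient there were 18 and 7 spots, 14 and 6 genes, and 39 and 18 of the wider list, and Ncstn passed at 0.44 (adjusted p = 1.75e-04). Array weights gave 13 and 7 spots, 9 and 6 genes, and 38 and 13 of the wider list. Over all genes the share called was 46.2%, 44.9% and 38.5% in these settings. With the control spots included, 4 repair spots were higher and 0 lower (limma, adjusted, with 6.71% of all spots called, and 29 repair spots at an unadjusted p under 0.05). With 1 array left out, repair spots ran from 0 to 15 higher and 0 to 8 lower, repair genes from 2 to 11 and 0 to 6, and the wider list from 2 to 38 and 0 to 12.

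The binding of mouse clones to hamster transcripts and to relatives of a gene was not tested, nor was the amplification of the RNA before labelling. Ratios give no level, so genes cannot be ranked by abundance.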
